A study of Mus musculus with 6 samples.

Results

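The 10 genes described here encode the parts of the elastic fibre and the enzymes that cross-link it: Eln, Fbn1, Fbn2, Mfap2, Mfap5, Fbln5, Efemp2, Emilin1, Lox and Loxl1. They were chosen by name, with the contrast between the 2 groups already known, and are 10 of the 22186 genes in the deposited table. All 10 were measured in every library and all 10 passed the filter on low values. The cells were primary mouse adipose-derived stromal cells (ADSCs), the adherent mesenchymal cells of fat tissue, of WT genotype in both groups. One group was kept in co-culture with regulatory T cells (Tregs), the Foxp3-expressing T cells that restrain immune responses, for 48 h (Treg co-culture, n = 3 libraries). The other group was the control (n = 3 libraries). No library of ADSCs kept with another kind of cell was among the samples, and the labels give neither the source of the Tregs nor whether the cells touched. Each library also carries a batch number that a co-culture and a control library share. Whether the 3 libraries of a group stand for different mice or dishes is not in the labels, and p-values below rest only on the spread among the libraries at hand, part or all of which may be technical.

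Elastic fibres give skin, arteries and lung their recoil. Fibroblasts and other mesenchymal cells first lay down microfibrils, which are strings of fibrillin with associated glycoproteins, and then deposit the soluble monomer tropoelastin on them. Fibulins carry tropoelastin and lysyl oxidases to the microfibril, and lysyl oxidases join lysines of neighbouring tropoelastin molecules into an insoluble network. Elastin is laid down mainly in development and early life and lasts for much of the life of the animal.

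Expression was given as TPM, a share of all transcripts in a library after division by gene length, so that levels of different genes can be set side by side. Every library summed to 1000000 TPM, and 6566 to 7073 genes per library were listed at 0. Sequencing depth is lost in this unit, so the depth behind each value is unknown and no interval for counting error is given. Libraries of the same group correlated at a Pearson r of 0.997 to 0.998 on log2(TPM + 1) across all 22186 genes, those listed at 0 included. Stromal markers were present in every library, with a lower sum in Treg co-culture. The 11 listed ones summed to between 1468 and 1498 TPM in Treg co-culture and between 1638 and 1654 TPM in controls. In the limma fit below, 7 of the 11 fell and 1 rose, against 18% and 19.8% of all genes tested. Dlk1 stood lowest, at 59.0% of its control level, and Eng, the 1 that rose, stood at 108%. Of 13 T cell and Treg markers in the table, 7 were listed at 0 in all 6 libraries, among them Cd3e, Cd4 and Il2ra. The 13 summed to 4.05 to 4.47 TPM in Treg co-culture and 3.72 to 4.24 TPM in controls. The 8 skeletal muscle markers summed to 1536 to 1544.5 TPM in Treg co-culture and 502 to 540 TPM in controls, and all 8 rose. The 7 smooth muscle and pericyte markers summed to 6207 to 6294 TPM in Treg co-culture and 5440.3 to 5510 TPM in controls. As for stromal markers, sums were lower in Treg co-culture for adipocyte markers (69.1 to 76.6 TPM, against 92.1 to 105 TPM in controls), macrophage markers (68.0 to 80.04 TPM, against 94.5 to 102 TPM), endothelial markers (28.3 to 29.6 TPM, against 33.7 to 35.8 TPM) and mesothelial markers (373 to 383 TPM, against 433 to 441 TPM). Treg co-culture 1 stood apart in a few transcripts of heart and liver: Myl2, Myl3 and Alb, which encode myosin light chains and serum albumin, summed to 81.1 TPM there and to at most 1.10 TPM in every other library. Genes within a list differed. By the limma fit below, Lyz2 fell (44.7 TPM in Treg co-culture, 65.9 TPM in controls). It was the only 1 of 8 tested macrophage markers to fall, and 0 rose. Endothelial markers had 2 of 4 lower and Kdr higher, and smooth muscle and pericyte markers had 4 of 7 higher and Myh11 lower. Fabp4 made up most of the adipocyte sum (70.9 TPM in Treg co-culture, 93.6 TPM in controls). The part of these marker differences in the results below was not tested. In bulk RNA of this kind, fewer cells of a type and less RNA per cell cannot be told apart.

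All 10 genes had a lower mean in Treg co-culture than in controls, by amounts that differed widely between them. Eln stood at 29.4% of its control level, Mfap2, Fbln5 and Fbn2 at 64.4% to 66.7%, Lox, Fbn1 and Efemp2 at 82.7% to 87.2%, and Mfap5, Loxl1 and Emilin1 at 93.4% to 96.7%. In a limma fit over 12405 genes, 8 of the 10 lay past a Benjamini-Hochberg adjusted p of 0.05 in the lower direction, against 18% of all genes tested, and 0 lay past it in the higher direction, against 19.8%. The same 8 had all 3 co-culture values below all 3 control values, which was true of 24% of all genes tested. The median log2 fold change of the 10 was -0.26, against 0.00 over all genes tested. Since these genes were picked with this contrast known, these counts describe them and test nothing. The same holds for every later statement that a gene of the 10 passed or missed the threshold, in any setting of the fit.

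**Figure D1:**
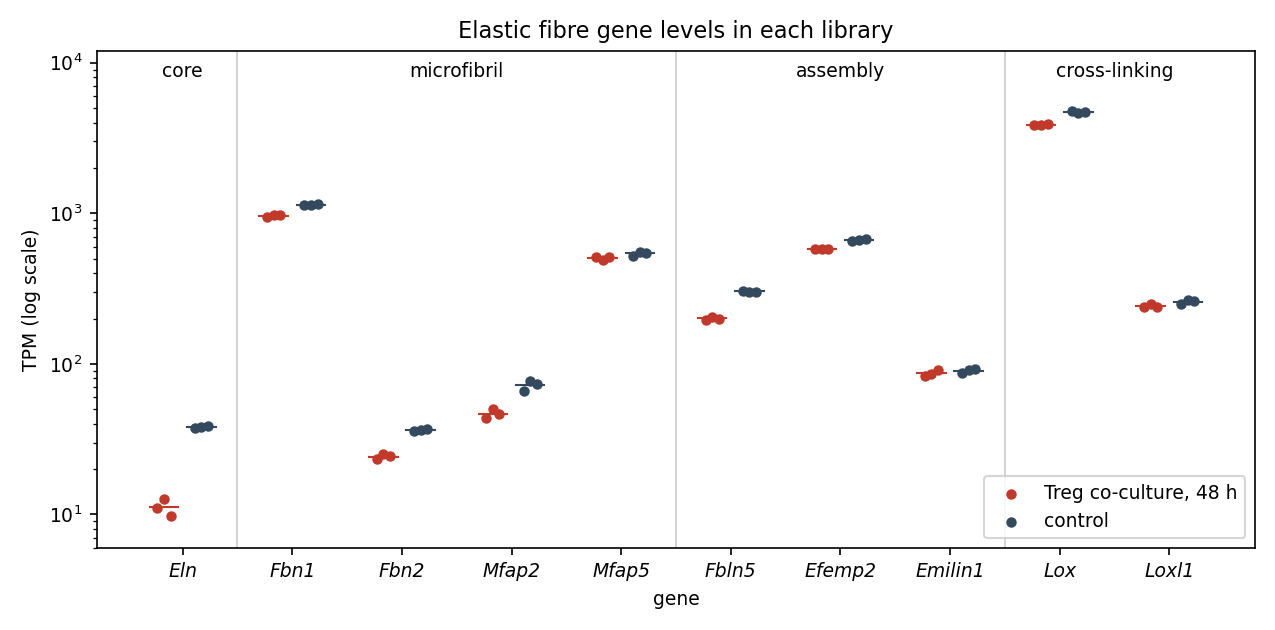
TPM of the 10 elastic fibre genes in each of the 6 libraries, on a log axis, with Treg co-culture left of control for each gene, points for libraries and bars for group means. On this scale Eln shows the widest gap between the groups, with 9.72 to 12.7 TPM in Treg co-culture and 37.3 to 38.6 TPM in controls, while the points of Emilin1 and Loxl1 overlap.

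Eln encodes tropoelastin, the monomer that forms the elastic core of the fibre. It had 11.1, 12.7 and 9.72 TPM in Treg co-culture 1 to 3, against 37.3, 38.3 and 38.6 TPM in control 1 to 3. No co-culture library came near a control library, and the lowest control value was well over the highest co-culture value. The means were 11.2 ± 1.51 TPM in Treg co-culture and 38.1 ± 0.69 TPM in controls (SD, n = 3 each). On the log2(TPM + 1) scale the difference was -1.69 ± 0.09 (SE). This placed Eln at position 5 from the lowest of 12405 fold changes on that scale, which understates the change of low genes. The co-culture libraries also differed more among themselves, with a coefficient of variation of 13.5% in Treg co-culture and 1.83% in controls. Among genes ranked by mean TPM, Eln lay above 30.6% of the genes tested in Treg co-culture and above 65.7% of them in controls. Its middle co-culture value came from Treg co-culture 1, the library with heart and liver transcripts, and without that library its log2 fold change was -1.69, as large as with it.

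Fibrillins are the large glycoproteins that string together into the microfibril. Fbn1, the main fibrillin of postnatal tissue and the gene mutated in Marfan syndrome, had 940.2, 972 and 967 TPM in Treg co-culture 1 to 3, against 1132, 1143 and 1148 TPM in control 1 to 3. The groups did not overlap, and the difference was -0.25 ± 0.02 (log2, SE). Fbn2, the fibrillin most abundant in embryonic tissue, had 23.2, 25.2 and 24.3 TPM in Treg co-culture, against 35.8, 36.1 and 37.1 TPM in controls. Fbn2 was thus far below Fbn1 in level and lay further below its control, at -0.57 ± 0.05 (log2, SE). Fbn1 made up 97.5% ± 0.062 of the summed TPM of both fibrillins in Treg co-culture and 96.9% ± 0.040 in controls (SD, n = 3 each). That share was higher in all 3 co-culture libraries than in any control library, although it moved by only 0.63 percentage points.

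Mfap2 and Mfap5 encode the small microfibril-associated glycoproteins that bind fibrillin and growth factors of the TGF-beta family. Mfap2 had 43.6, 49.9 and 46.4 TPM in Treg co-culture, against 66.2, 77.1 and 73.9 TPM in controls. Its difference was -0.62 ± 0.07 (log2, SE), the next largest of the 10 after Eln, and both groups spread by similar amounts, with a coefficient of variation of 6.76% in Treg co-culture and 7.79% in controls. Mfap5, the more abundant of the pair, had 512, 490.4 and 514 TPM in Treg co-culture, against 522, 556 and 545 TPM in controls. The groups lay close together without overlapping, at 505 ± 13.0 TPM in Treg co-culture and 541 ± 17.4 TPM in controls (SD, n = 3 each). Mfap5 passed the threshold in 13 of 17 settings of the fit and missed it without Treg co-culture 2, without control 2, without control 3, and without the mean-variance trend. Mfap2 made up 8.45% ± 0.710 of their summed TPM in Treg co-culture and 11.8% ± 0.485 in controls.

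Fbln5 and Efemp2 encode fibulin-5 and fibulin-4, the short fibulins without which elastic fibres do not form properly in mice. Fibulin-5 gathers tropoelastin on microfibrils and binds Loxl1, and fibulin-4 brings Lox to tropoelastin. Fbln5 had 195.4, 205.8 and 200.03 TPM in Treg co-culture, against 305.0, 301.4 and 301.2 TPM in controls. Its control values nearly coincided, and every co-culture value lay well below them, at -0.59 ± 0.03 (log2, SE). Efemp2 had 576, 580.1 and 583 TPM in Treg co-culture, against 655, 669 and 671 TPM in controls, a difference of -0.20 ± 0.02 (log2, SE). The fibulins of this pair were therefore unequally displaced, and Fbln5 made up 25.7% ± 0.446 of their summed TPM in Treg co-culture and 31.3% ± 0.432 in controls. Emilin1 encodes a glycoprotein found at the boundary between elastin and microfibrils, which in mice restrains TGF-beta processing. It had 83.3, 85.9 and 90.7 TPM in Treg co-culture, against 86.3, 90.4 and 92.1 TPM in controls. These ranges overlapped, the difference was -0.05 ± 0.04 (log2, SE), and Emilin1 passed the threshold in 0 of 17 settings.

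Promoter sequences, from 250 bases before to 50 bases after an annotated start site, were taken from RefSeq on build GRCm38.p6. Those of 5 of the 10 genes were searched, namely Efemp2, Emilin1, Fbln5, Fbn1 and Mfap2. They made 9 entries in all, some of which overlap within a gene. No promoter of the other members was searched, so the motif counts below do not describe the 10 as a set. They were searched on both strands for GGGCGG (the GC box), CAGACA (a Smad-binding element), CATTCC (bound by TEAD factors), TATAAA (the TATA box) and GAAANNGAA (an interferon response element), none of which contains another. Sequences of Fbn1 (chr2:125506389-125506688, minus strand), Mfap2 (chr4:141010174-141010473, plus strand) and Fbln5 (the outermost start site, chr12:101819070-101819369, minus strand) are shown because they come from genes described above that differ in how far they lay below control: Fbn1 little, Mfap2 and Fbln5 more. Each runs 5′ to 3′ along the gene's strand, and capitals mark matches to any of the 5 motifs on either strand.
Fbn1: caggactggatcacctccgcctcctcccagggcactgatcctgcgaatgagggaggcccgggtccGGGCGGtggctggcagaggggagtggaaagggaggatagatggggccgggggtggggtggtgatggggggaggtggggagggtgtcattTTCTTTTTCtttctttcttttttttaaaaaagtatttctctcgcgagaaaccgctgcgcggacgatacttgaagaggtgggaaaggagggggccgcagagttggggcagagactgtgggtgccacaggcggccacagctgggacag
Mfap2: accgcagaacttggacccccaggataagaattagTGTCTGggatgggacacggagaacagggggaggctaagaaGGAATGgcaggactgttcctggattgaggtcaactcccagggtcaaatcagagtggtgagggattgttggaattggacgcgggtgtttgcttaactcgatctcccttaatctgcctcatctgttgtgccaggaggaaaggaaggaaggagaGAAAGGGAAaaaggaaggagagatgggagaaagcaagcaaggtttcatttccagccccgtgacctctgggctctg
Fbln5: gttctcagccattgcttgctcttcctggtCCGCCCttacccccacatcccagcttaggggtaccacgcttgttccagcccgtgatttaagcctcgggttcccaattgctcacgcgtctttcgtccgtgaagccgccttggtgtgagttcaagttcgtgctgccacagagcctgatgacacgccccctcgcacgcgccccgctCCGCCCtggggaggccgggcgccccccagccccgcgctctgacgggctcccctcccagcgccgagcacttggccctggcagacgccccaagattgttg
In the Fbn1 sequence a GC box match begins at position -185 and a GAAANNGAA match at -96, counted from the start site. In the Mfap2 sequence the Smad-binding element begins at -216, the TEAD element at -176 and the interferon response element at -25. Matches differed between start sites of a gene. The Mfap2 entry not shown held 2 GC box matches and none of these elements. The Fbln5 sequence shown held only GC box matches, while the Fbln5 entry not shown held CAGACA at -15, GAAANNGAA at 6 and no GC box. The GC box was found in 6 of the 9 entries, against 35.7% of 32851 promoters of the same length, CAGACA in 3 of 9, against 21%, and GAAANNGAA in 3 of 9, against 8.56%. The 6 entries with a GC box came from 4 genes, and overlapping entries of Efemp2 share matches. The 9 entries held 48.7% to 78.3% G and C, against a median of 52.7% for all promoters. The motif counts were not adjusted for this. CATTCC was found in 1 of 9, against 14.7%, and TATAAA in 0 of 9, against 13.6%. A match of these letters is a description and not a binding site, and none of the motifs was matched to the size of a gene's difference.

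Lox and Loxl1 encode the copper-dependent amine oxidases most closely tied to elastin, which turn lysines into the aldehydes that form cross-links. Lox was the most abundant of the 10 genes, with 3849.7, 3846 and 3911 TPM in Treg co-culture, against 4760.5, 4605 and 4672 TPM in controls. It lay above 99.8% of the genes tested in Treg co-culture and above 99.9% in controls, and its difference was -0.27 ± 0.02 (log2, SE). In absolute terms the gap was the widest of the 10, at 3869 ± 36.5 TPM in Treg co-culture and 4679 ± 77.9 TPM in controls (SD, n = 3 each). Loxl1 had 239, 249 and 239 TPM in Treg co-culture, against 248, 265 and 260.0 TPM in controls. Its ranges overlapped, since the highest co-culture value was above the lowest control value. The difference was -0.09 ± 0.03 (log2, SE) and Loxl1 passed the threshold in 6 of 17 settings: with the batch number as a block, without Treg co-culture 2, without control 1, and under the 3 other ways of scaling.

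The other 3 genes of the family, Loxl2, Loxl3 and Loxl4, which are better known for work on collagens, moved the other way. Loxl3 rose to 132 ± 2.35 TPM in Treg co-culture, against 78.1 ± 2.20 TPM in controls, a log2 fold change of 0.75 ± 0.04 (SE; limma, Benjamini-Hochberg adjusted p = 1.48e-07). Loxl2 rose to 502 ± 14.3 TPM in Treg co-culture, against 420.1 ± 4.34 TPM in controls (0.26 ± 0.03; limma, adjusted p = 3.11e-05), and Loxl4 rose to 20.2 ± 1.59 TPM, against 14.0 ± 0.38 TPM in controls (0.50 ± 0.07; limma, adjusted p = 3.91e-04). Lox remained the bulk of the family, at 81.2% ± 0.466 of the 5 summed lysyl oxidases in Treg co-culture and 85.9% ± 0.240 in controls. Loxl2 took 10.5% in Treg co-culture and 7.71% in controls, and Loxl3 took 2.77% in Treg co-culture and 1.43% in controls. The share of Loxl1 was 5.09% in Treg co-culture and 4.73% in controls, so Loxl1 held a slightly larger part of a smaller total. Summed TPM of the 5 genes was 4766 ± 37.2 in Treg co-culture and 5449 ± 75.6 in controls.

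**Figure D2:**
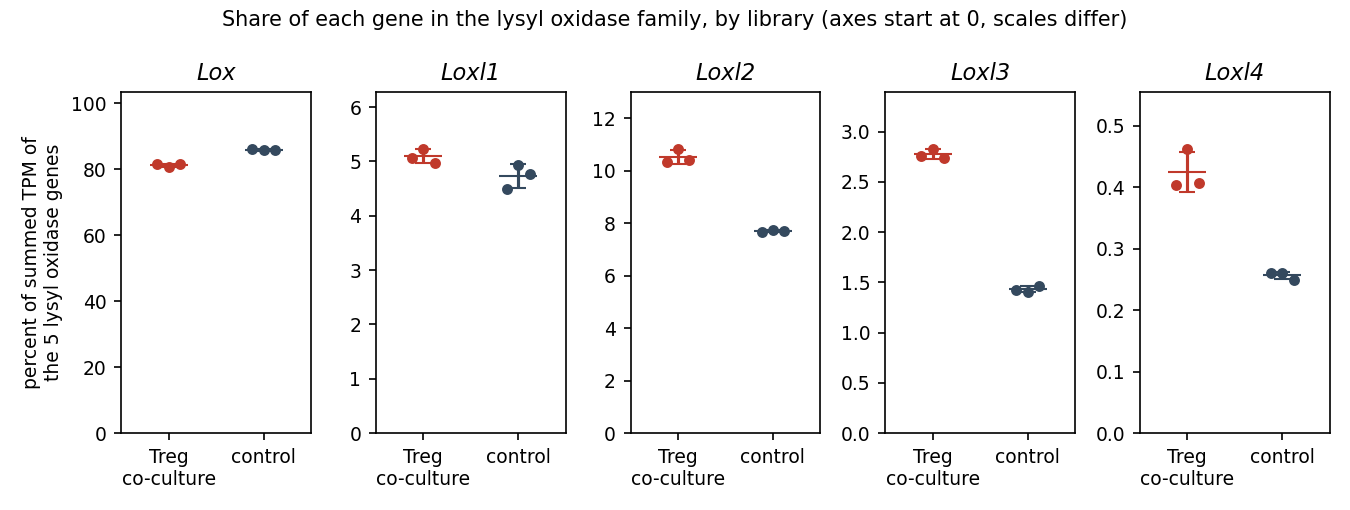
Share of each of the 5 lysyl oxidase genes in their summed TPM, in percent, for each library, with Treg co-culture left of control. Lox took 81.2% of the sum in Treg co-culture and 85.9% in controls, and Loxl2 and Loxl3 took larger shares in all 3 co-culture libraries than in any control library.

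The order of the 10 genes by level was nearly the same in both groups. In Treg co-culture it ran Lox, Fbn1, Efemp2, Mfap5, Loxl1, Fbln5, Emilin1, Mfap2, Fbn2 and Eln, from high to low. In controls Fbln5 stood above Loxl1 and Eln stood above Fbn2, and the other places were as in Treg co-culture. In both groups the ranges of every pair of neighbours in the order were separate, though Eln and Fbn2 only just so in controls, where the lowest Eln value was 37.3 TPM and the highest Fbn2 value was 37.1 TPM. Per 100 TPM of Fbn2 there were 46.1 ± 5.46 TPM of Eln in Treg co-culture and 104.7 ± 1.34 in controls (SD, n = 3 each). Per 100 TPM of Fbn1 there were 1.16 ± 0.153 TPM of Eln in Treg co-culture and 3.34 ± 0.037 in controls. These ratios lie within a library and do not depend on how libraries were scaled to each other. The 10 genes together summed to 6474, 6517 and 6585 TPM in Treg co-culture, against 7848, 7781 and 7839 TPM in controls. Lox alone made up 59.3% ± 0.241 of that sum in Treg co-culture and 59.8% ± 0.759 in controls, and the other 9 summed to 84.5% of their control level, against 83.4% for all 10. Eln made up only 0.171% of it in Treg co-culture and 0.487% in controls.

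**Figure D3:**
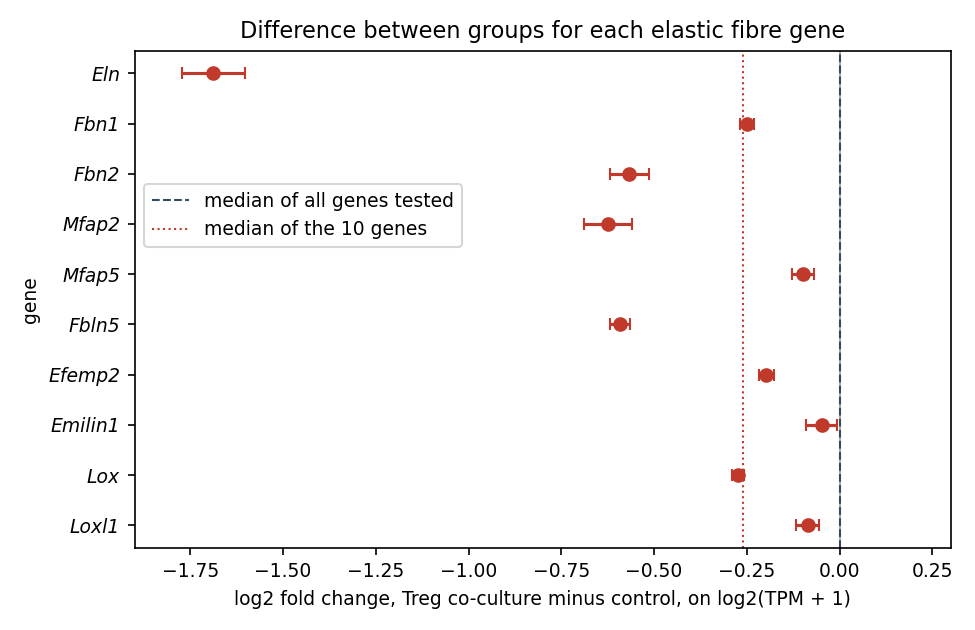
Log2 fold change (Treg co-culture minus control, on log2(TPM + 1)) of the 10 elastic fibre genes, with bars of 1 SE from the limma fit. All 10 points lie below 0, from -1.69 for Eln to -0.05 for Emilin1, and the 9 other than Eln lie at -0.62 or nearer to 0.

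Across the 6 libraries, the genes that ran most alike were Fbn1 and Lox, at a Euclidean distance of 0.0651 between their log2(TPM + 1) values, each centred on its own mean. Fbn2 and Fbln5 were almost as close, at 0.0656. Eln stood away from the other 9, at distances of 1.33 from Mfap2, the nearest, to 2.03 from Emilin1, the farthest. Outside the 10, the genes nearest to Eln by the same measure were Gpr165, Sfrp2, Ifit3, Lgr5 and Scara5, at 0.193 to 0.365. Sfrp2, a secreted modulator of Wnt signalling, stood at 33.0% of its control level and Lgr5, a receptor for R-spondins, at 25.0%. Ifit3, an interferon-induced gene, stood at 32.5%, but it has a near-identical copy, Ifit3b, between which reads may have been split. With only 2 groups in 6 libraries, this likeness follows mainly the size of the difference between the groups.

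Beyond the 10 genes, 11 lists of genes with a part in building, anchoring or removing elastic fibres were examined in the same fit. They held 89 genes, of which 75 passed the filter on low values, 16 rose and 33 fell in Treg co-culture, and 26 did not pass the test. Against 19.8% and 18% of all genes tested, this is a larger number of lower genes and about the background number of higher ones, and the median log2 fold change over the 75 was -0.14. The same shares, 19.8% higher and 18% lower, are the background for the counts of each list below.

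**Figure D4:**
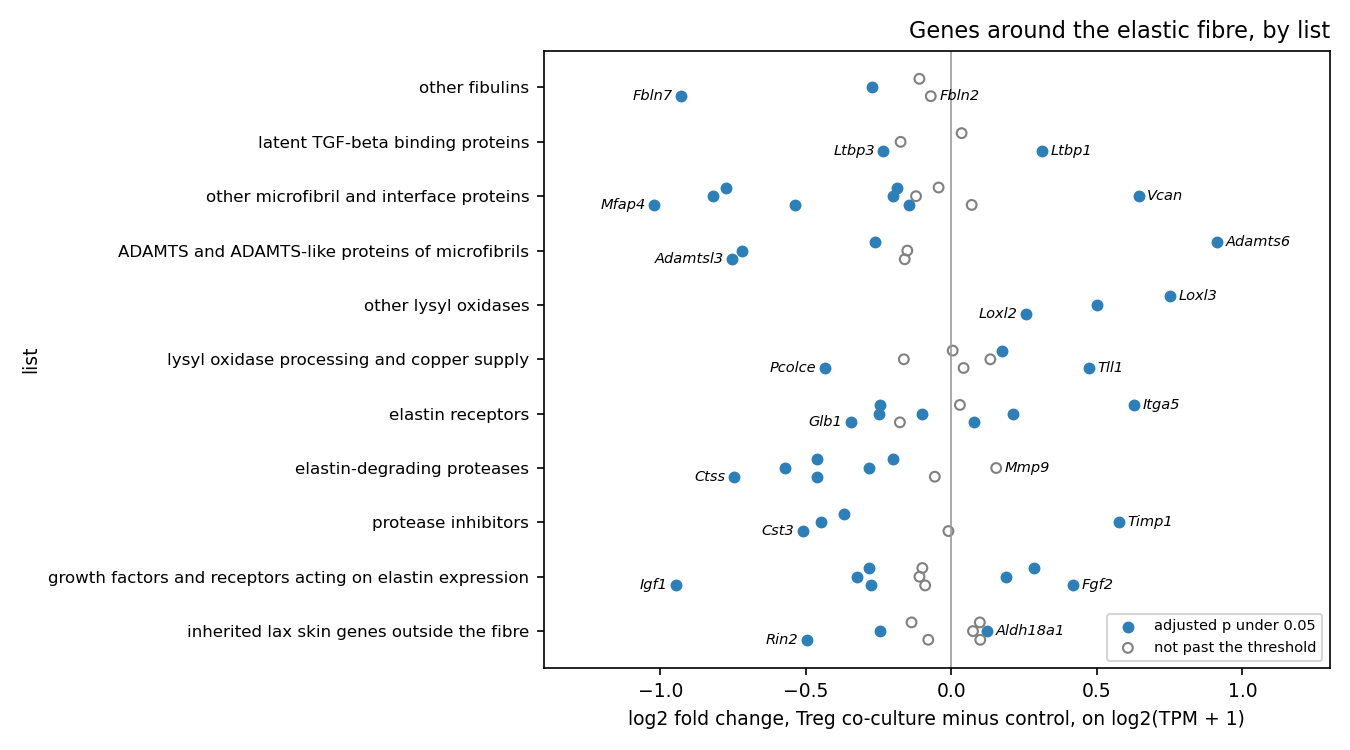
Log2 fold change (Treg co-culture minus control) of every tested gene of the 11 wider lists, by list, with filled points for genes past a limma adjusted p of 0.05 and open points for the rest. The 3 other lysyl oxidases all lie above 0, while 6 of the 8 elastin-degrading proteases are filled points below 0.

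Among other proteins of the microfibril and its surroundings, 7 of 11 tested genes fell and 1 rose. Mfap4, which binds tropoelastin and fibrillin, fell to 33.6 ± 1.94 TPM in Treg co-culture, against 69.2 ± 1.79 TPM in controls, a log2 fold change of -1.02 ± 0.05 (limma, adjusted p = 2.63e-07). Dcn, the collagen-binding proteoglycan decorin, fell to 576 ± 8.35 TPM in Treg co-culture, against 1018 ± 33.5 TPM in controls (limma, adjusted p = 1.01e-08). Of the other fibulins, 2 of 4 tested fell and 0 rose. Fbln7 fell to 13.7 ± 0.59 TPM in Treg co-culture, against 27.0 ± 0.42 TPM in controls (limma, adjusted p = 1.67e-06), and Efemp1, fibulin-3, fell by 0.27 on the log2 scale. Fbln2, the most abundant of them, had 3328 ± 67.7 TPM in Treg co-culture and 3496 ± 128 TPM in controls, at a limma adjusted p of 0.0532. It passed the threshold in 8 of 17 settings, among them the batch number as a block (limma, adjusted p = 0.0114), the omission of Treg co-culture 2 or of control 1, and quantile normalization, which gave a log2 fold change of -0.14 in place of -0.07. Of 4 latent TGF-beta binding proteins, Ltbp1 rose (log2 fold change 0.31) and Ltbp3 fell (-0.23), which is near the share over all genes tested (19.8% higher and 18% lower), and 2 fell without control 1. Among the ADAMTS and ADAMTS-like proteins, Adamts6 rose to 199% of its control level and Adamtsl3 and Adamtsl4 fell to 52.8% and 57.7% of theirs, with 1 of 6 higher and 3 lower.

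Lysyl oxidases are secreted as precursors that proteases of the Bmp1 family cut, and the list of these proteases, their partners and copper carriers held 7 tested genes. Pcolce, an enhancer of procollagen processing, fell to 730.1 ± 12.5 TPM in Treg co-culture, against 987 ± 23.4 TPM in controls (limma, adjusted p = 3.99e-07), while Bmp1 rose to 246 ± 6.52 TPM in Treg co-culture, against 218 ± 6.74 TPM in controls (limma, adjusted p = 0.0018). In that list 2 of 7 genes rose and 1 fell, of all genes tested 19.8% and 18%, and Tll1, a Bmp1-related protease at a low level, missed the threshold without Treg co-culture 2 and without control 3, at limma adjusted p values of 0.0551 and 0.0526. Of the genes of elastin and fibre receptors, 3 of 9 rose and 4 fell, but each fit that left out a library had only 2 or 3 lower ones, with 2 without Treg co-culture 2, and 2 or 3 higher ones. Itga5, an integrin subunit, rose to 155% of its control level. Glb1 and Ctsa, from which parts of the elastin-binding complex at the cell surface are made, fell to 78.5% and 84.2% of theirs. TPM per gene does not separate transcript forms of a gene, so the form that encodes the receptor part was not measured.

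Of 12 listed genes of enzymes that can break elastin down, 8 passed the filter on low values, 6 of which fell and 0 of which rose, against 18% and 19.8% of all genes tested. The other 2 did not pass the test: Mmp14 had 761 ± 7.69 TPM in Treg co-culture and 792 ± 22.9 TPM in controls and passed it under quantile normalization and without control 1, and Mmp9, at a very low level, had 1.18 ± 0.499 TPM in Treg co-culture and 0.931 ± 0.096 TPM in controls. Mmp2, a gelatinase that also cuts elastin, fell to 490.1 ± 11.7 TPM in Treg co-culture, against 729 ± 19.7 TPM in controls (limma, adjusted p = 1.48e-07). Ctsk, the elastin- and collagen-cutting protease cathepsin K, fell to 82.2% of its control level. Of the 5 inhibitor genes tested, 3 fell and 1 rose. Timp3 and Timp2 fell to 73.3% and 77.4% of their control levels, and Timp1 rose to 149%. Among growth factors and receptors known to act on elastin expression, 3 of 10 rose and 4 fell, with TGF-beta ligands and receptors in both directions. Igf1, a growth factor, fell to 10.5 ± 0.62 TPM in Treg co-culture, against 21.2 ± 1.08 TPM in controls (limma, adjusted p = 5.25e-06). Fgf2, a fibroblast growth factor, rose to 195 ± 4.88 TPM in Treg co-culture, against 146 ± 4.59 TPM in controls (limma, adjusted p = 7.35e-06). Tgfb1, a ligand known to raise elastin expression, rose to 97.2 ± 4.63 TPM in Treg co-culture, against 79.7 ± 2.92 TPM in controls (limma, adjusted p = 7.48e-04), and its receptor Tgfbr1 rose to 114% of control. The ligands Tgfb2 and Tgfb3 fell to 78.7% and 82.1% of control, and the receptor Tgfbr2 to 82.5%. Of 8 genes of inherited lax skin that act inside the cell, 2 fell, Rin2 to 70.2% and Atp6v1a to 84.3% of control, and 1 rose, Aldh18a1 to 109%. That is near the share over all genes tested (18% lower and 19.8% higher). Aldh18a1 missed the threshold without Treg co-culture 3 (limma, adjusted p = 0.0504). The genes named from these lists are the 3 lowest adjusted p values and the highest level of each list, or some of them, except that Mmp9, Mmp14, Tgfb1, Tgfb2, Tgfb3 and Tgfbr1 were added after their values were seen, and the lists were drawn up with earlier results of the same libraries known.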

How the data were processed

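RNA of primary mouse ADSCs was sequenced in 6 libraries, 3 of Treg co-culture and 3 of control. Trizol was used for extraction, per the labels' protocols, and mRNA was captured on beads, fragmented by heat and made into adapter-ligated cDNA libraries. The authors deposited 1 table of TPM values per gene and library, for 22186 NCBI gene numbers. Per the submitters' processing notes, the builds GRCm38, mm10 and GRCm39 were named, with no role. The read aligner and gene counter behind the table, and its gene models, were not given in the sources used here. Reads shared by overlapping or near-identical genes may therefore have been split in a way that is not known. Scaling each library to a fixed total removes its depth and makes every value a share, so that strong changes in a few abundant genes shift the rest. Of 10 listed housekeeping genes, 4 rose and 1 fell in the fit described below, against 19.8% and 18% of all genes tested. They ranged from Polr2a at 89.3% of its control level to Actb at 128%, and their median log2 fold change was 0.12.

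Symbols were taken from the NCBI RefSeq gene table of GRCm38.p6, which matched 99.1% of gene numbers, and promoter sequences from RefSeq on the same build. The 12405 genes that averaged 1 TPM or more over the 6 libraries were fitted with limma 3.58.1 in R 4.3.3 (lmFit, eBayes with a mean-variance trend) on log2(TPM + 1), and p-values were adjusted over all of them by Benjamini-Hochberg, with a threshold of 0.05. Fold changes on that scale understate the change of low genes. The 10 genes and all gene lists were chosen with earlier results of these data known, and the 10 carry no p-value for that reason. From the wider lists, the genes that could be named were up to 3 past the threshold with the lowest adjusted p, and the gene with the highest mean TPM, in each list.

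Batch numbers in the labels are shared by 1 co-culture and 1 control library and so pair them, which makes a fit with the number as a block an alternative. Deviations from the group means of same-numbered libraries correlated at 0.0115, -0.0146 and 0.00402 across 12405 genes, and those of differently numbered libraries at -0.0606 to 0.0653. Also tried were pseudocounts of 0.1 and 0.01, the fit without a filter on low values and with a minimum of 5 TPM, scaling by the median of ratios, quantile normalization, TPM rescaled after removal of mitochondrially encoded and ribosomal protein genes, eBayes with no trend, robust eBayes, and the omission of each library in turn.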

Additional observations from a re-analysis of the deposited data

How the results depend on the processing

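The counts of called genes over the whole table, over the wider lists and over the 10 elastic fibre genes stayed within 1.5 times their values under every alternative run. The replicate block gave 9 of the 10 genes past the threshold in the lower direction in place of 8, the added one being Loxl1. In the wider lists it gave 16 higher and 34 lower genes, against 16 and 33 without it. Among the 10 and the genes that could be named by rule from the wider lists, it changed only the calls of Loxl1 and Fbln2. Leaving out 1 library at a time gave 7 to 9 of the 10 lower and 0 higher, 31 to 37 lower and 14 to 16 higher genes in the wider lists, and 1840 to 1973 lower and 2055 to 2245 higher genes in the whole table. The log2 fold change of Eln lay between -1.78 and -1.60 over these, and the median of the 10 between -0.27 and -0.25. No fold change of the 10 turned sign, and quantile normalization moved 2 of them by more than the spread between libraries, Efemp2 to -0.16 and Lox to -0.32. Among the other genes that could be named, quantile normalization took Bgn out of the calls, at -0.03, and Itgb1 was lost without the trend and in 3 of the fits that left out a library. Counts of single lists rest on few genes: the lax skin list had 0 higher genes without Treg co-culture 3, the list of lysyl oxidase processing had 1 higher gene with the filter of 5 TPM, without Treg co-culture 2 or without control 3, the receptor list had 2 lower genes without Treg co-culture 2, and the latent TGF-beta binding proteins had 2 lower genes without control 1. The cause of these shifts was not tested. The median log2 fold change of all genes lay between -0.0057 and 0.0065 under every setting. With 3 libraries a group, unknown depth and no statement of separate animals, the precision of small differences such as those of Mfap5, Loxl1 and Emilin1 is limited.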
